A study of Caenorhabditis elegans with 12 samples.

Results

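Whole Caenorhabditis elegans carry their main digestive and lysosomal proteases in families of aspartyl proteases (the asp genes, related to cathepsin D) and of cathepsin-type cysteine proteases (cpr, related to cathepsin B; cpl, cathepsin L; cpz, cathepsin Z). These enzymes work at acid pH, which the vacuolar ATPase (V-ATPase, the vha genes) sets by pumping protons across membranes. The members described here are the genes whose platform symbol starts with asp-, cpr-, cpl-, cpz- or vha- and a number, each read from its brightest probe set that carries 1 gene. They are 44 genes of 17118 on the array, with 15 asp genes, 11 cathepsins (8 cpr, 1 cpl and 2 cpz) and 18 vha genes.

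The study compared 3 forms of silver with a control solution in the wild-type strain N2 (Bristol). The groups were artificially aged silver nanoparticles (sulfidized, by the series title), pristine silver nanoparticles, silver nitrate (AgNO3) and control, with 3 arrays each and 12 arrays in all. Larvae at the first stage, 12 h old, spent 48 h in their solution, and RNA came from whole populations of 2000 to 3000 animals at 1 time. Each silver form was set at its own concentration with a 30% effect on reproduction, so the forms were matched on effect and not on dose. Nothing in the labels says that the 3 arrays of a group came from separate cultures, so the p-values measure the spread between these samples, which may be technical.

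In the worm, digestion takes place in the lumen of the intestine, and the intestinal cells hold many acidic, lysosome-related granules. The V-ATPase has a cytosolic V1 part that splits ATP and a membrane V0 part that carries the protons, and one subunit of the V0 part, the a subunit, comes in isoforms used in different tissues. In samples of whole animals, fewer cells of a type and less RNA per cell cannot be told apart.

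Array medians lay between 119.1 and 135.1 units of deposited signal, and the arrays were scaled here to a common median. All values below are this scaled signal, or its log2 with values under 16 set to 16 (the floor). Of the 44 members, 40 lay over the floor on all 12 arrays, and asp-17 lay at it on all 12 and is only named. The level of asp-11 was at the floor on 9 arrays. Each gene is compared with itself between groups, since the signals of different probe sets are not on one scale. Of the marker genes fixed for other tissues, the 14 for intestine, the 12 for germline and oocytes, the 11 for neurons and the 8 for body wall muscle were each over the floor on 1 or more arrays.

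No member passed the test in any of the 6 comparisons between groups (limma, adjusted p under 0.05 over 22548 probe sets). For silver nitrate against control 0 of 44 members were called, where 0.133% of all probe sets were, and the smallest adjusted p of a member was 0.0729. For aged particles against control 0 members were called, where 0.00887% of probe sets were, and for pristine particles 0 members, where 0.00443% were, with smallest adjusted p-values of 0.415 and 0.203. The comparisons between exposures called 0 members too, where 0.111% of probe sets were called for aged against pristine, 0.253% for aged against silver nitrate and 0.00443% for pristine against silver nitrate. The F test over the 3 exposures called 0 members, where 0.0621% of probe sets were called. At an unadjusted p under 0.05, 10 members differed for silver nitrate against control (7 higher, 3 lower), where 12.3% of all probe sets did. For aged particles it was 4 members (3 higher, 1 lower) where 8.25% of probe sets did, and for pristine particles 5 (2 higher, 3 lower) where 8.63% did. A further limma fit held only the probe sets above the median brightness, 38 of the members among them. It called 3 members for silver nitrate (asp-7, asp-8 and asp-13), where it called 184 of 11274 probe sets. For pristine particles it called 1 member (cpr-2), where it called 15 of 11274 probe sets. Brightness there is the mean over all 12 arrays, the exposed ones included. The control signals of asp-8, 108 to 130, lay near the array medians, so it may have entered that fit through its exposed arrays.

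**Figure D1:**
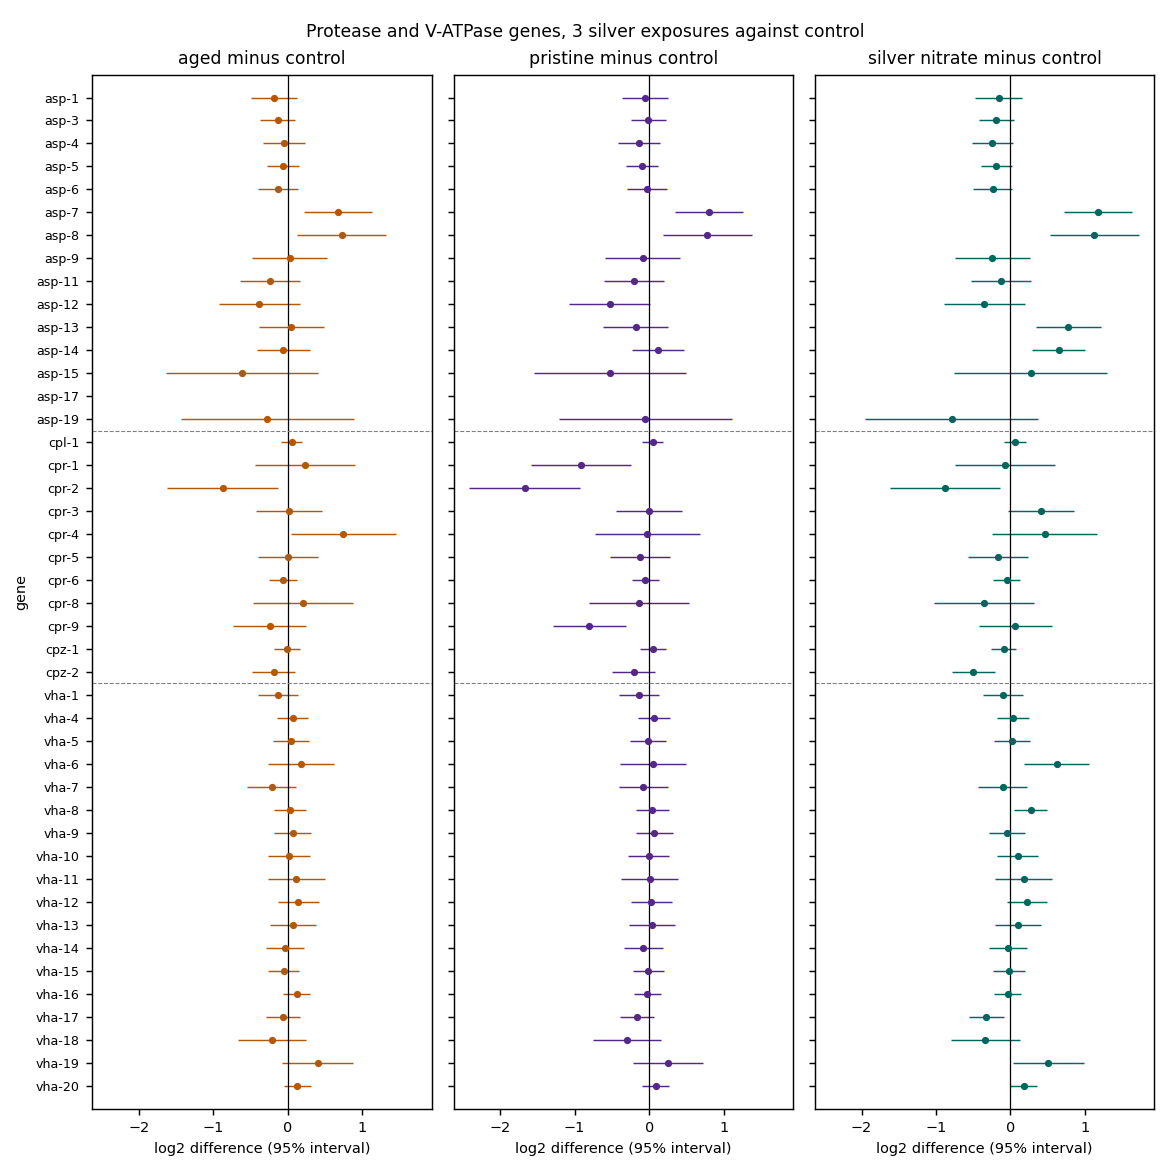
Log2 difference from control (points) with its unadjusted 95% interval (lines, limma, n = 3 arrays a group) for each gene, in aged-particle, pristine-particle and silver nitrate animals; dashed lines part the asp, cathepsin and vha genes, and asp-17, at the floor on all 12 arrays, has no point. The vha intervals are the narrowest as a class, while asp-7 and asp-8 lie to the right of 0 in each panel and cpr-2 to the left.

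The vha genes had the smallest median size of the difference from control, regardless of sign, in each exposure, while the order of the other classes varied; differences between classes were not tested. With aged particles the median size was 0.14 on the log2 scale for the asp genes, 0.19 for the cathepsins and 0.09 for the vha genes, against 0.16 for all genes. With pristine particles it was 0.12, 0.13 and 0.06 for the classes in that order, against 0.17 for all genes. With silver nitrate it was 0.24, 0.17 and 0.10, against 0.18 for all genes. Differences over 0.5 either way with silver nitrate were found in 5 of 15 asp genes, 2 of 11 cathepsins and 2 of 18 vha genes, against 12.7% of all genes. With aged particles they were found in 3 asp genes, 2 cathepsins and 0 vha genes, against 11.2% of all genes. With pristine particles they were found in 4 asp genes, 3 cathepsins and 0 vha genes, against 11.6%. The median SE of a difference was 0.18 for the asp genes, 0.20 for the cathepsins and 0.12 for the vha genes, against 0.20 for all genes. These 3 comparisons share the same control arrays.

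The signed medians lay near 0. For the asp genes the median log2 difference was −0.06 with aged particles, −0.06 with pristine particles and −0.16 with silver nitrate. For the cathepsins it was 0.00, −0.13 and −0.07 in that order of exposures, and for the vha genes 0.05, 0.00 and 0.03. Over all genes the medians were −0.02, 0.00 and −0.01. With pristine particles 9 of 11 cathepsins lay lower than control and 2 higher, against 49% of all genes lower.

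Between arrays of the same group the vha genes also spread least. Their within-group SD had a median of 0.15 on the log2 scale (range 0.09 for vha-20 to 0.27 for vha-19, 18 genes). The 11 cathepsins had a median of 0.25, with cpl-1 at 0.07 and cpr-2 at 0.42 as the extremes, and the 11 asp genes over the floor on all arrays had a median of 0.20. For all probe sets over the floor on all arrays it was 0.22.

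The neighbouring aspartyl protease genes asp-7 and asp-8 had the highest log2 differences among the asp genes in each exposure. They lie next to each other on chromosome V with 0 protein-coding genes between them in the reference gene order (WBcel235), and each was read from a probe set annotated to it alone. The signal of asp-7 was 263, 218 and 260 in aged-particle animals, 294, 264 and 254 in pristine-particle animals and 391, 345 and 313 in silver nitrate animals, against 214, 151 and 115 in control animals. All 9 exposed arrays lay above the highest control array, and the silver nitrate arrays lay above all arrays of the other groups. Against control its log2 difference was 0.67 ± 0.20 (SE) with aged particles (limma adjusted p = 0.415), 0.80 ± 0.20 with pristine particles (adjusted p = 0.293) and 1.17 ± 0.20 with silver nitrate (adjusted p = 0.0729). The silver nitrate value, 2.25-fold, passed without control replicate 1 (1.41, adjusted p = 0.0214) and with a trend and robust variance (adjusted p = 0.0294). Control replicate 1 was the control array nearest to the exposed ones, so leaving it out raises the difference. The silver nitrate difference passed in 3 of 20 alternatives. Over these 20 it was 0.95 to 1.41, with a limma adjusted p of 0.0073 to 0.299.

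For asp-8 the signal was 237, 161 and 211 in aged-particle animals, 222, 217 and 188 in pristine-particle animals and 225, 420 and 198 in silver nitrate animals, against 128, 108 and 130 in control animals. The exposed arrays again did not overlap with control, and silver nitrate replicate 2 stood above the other 2 arrays of its group. Its log2 differences were 0.72 ± 0.26 with aged particles (adjusted p = 0.514), 0.78 ± 0.26 with pristine particles (adjusted p = 0.452) and 1.13 ± 0.26 with silver nitrate (adjusted p = 0.136).

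The aspartyl protease genes asp-13 and asp-14 differed from the other groups in silver nitrate animals alone by their values, without passing the test. The signal of asp-13 was 848, 790 and 594 in aged-particle animals, 583, 742 and 572 in pristine-particle animals and 1212, 1384 and 1071 in silver nitrate animals, against 560, 807 and 795 in control animals. The silver nitrate arrays lay above each of the other 9. For silver nitrate against control the log2 difference was 0.77 ± 0.19 (adjusted p = 0.147), for aged against silver nitrate −0.73 ± 0.19 (adjusted p = 0.198) and for pristine against silver nitrate −0.95 ± 0.19 (adjusted p = 0.204).

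The pattern of asp-14 was alike in order. It had signals of 6495, 4388 and 4795 in aged-particle animals, 5370, 6789 and 5442 in pristine-particle animals and 9108, 8574 and 7654 in silver nitrate animals, against 4832, 5614 and 5710 in control animals. No silver nitrate array overlapped with an array of another group. The log2 difference was 0.65 ± 0.16 for silver nitrate against control (adjusted p = 0.142), −0.71 ± 0.16 for aged against silver nitrate (adjusted p = 0.131) and −0.53 ± 0.16 for pristine against silver nitrate (adjusted p = 0.329).

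Intestine markers are given beside these values. Of 14 markers, 13 lay higher with silver nitrate than in control (median log2 difference 0.35, 0 called), and their summed signal was 25220 to 29204 in silver nitrate animals, against 24803 to 25053 in control animals. It was 22361 to 24915 with aged particles and 23848 to 25312 with pristine particles. No intestine marker was at the floor on all arrays. The 14 markers include mtl-2, a metallothionein gene of a metal-responsive class, and were not tested as a measure of intestine content. The part of these markers in the protease values was not tested.

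The brightest asp probe sets, those of asp-1, asp-6 and asp-3, showed small differences. The enzyme of asp-1 is an aspartyl protease of the intestine, and asp-3 and asp-4 act in the necrotic death of neurons. The signal of asp-1 was 27346, 25341 and 25425 in aged-particle animals, 30355, 27371 and 27694 in pristine-particle animals and 32070, 21492 and 27046 in silver nitrate animals, against 25932, 31273 and 31901 in control animals. The groups overlapped, and the log2 differences were −0.18 ± 0.14 for aged particles, −0.06 ± 0.14 for pristine particles and −0.16 ± 0.14 for silver nitrate.

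For asp-6 the signal was 29436, 26613 and 24309 in aged-particle animals, 31079, 27287 and 27825 in pristine-particle animals and 27699, 20690 and 26585 in silver nitrate animals, against 27925, 30031 and 29792 in control animals. The silver nitrate arrays lay just under the lowest control array, with a log2 difference of −0.24 ± 0.12 (adjusted p = 0.464). For asp-3 and asp-5 the silver nitrate values were −0.19 ± 0.10 and −0.19 ± 0.09, and for asp-4 −0.24 ± 0.12. In asp-1, asp-3, asp-5 and asp-6 silver nitrate replicate 2 was the lowest array of its group. On that array the 337 probe sets with a mean signal over 10000 had a median of −0.38 against the control mean, against −0.04 and −0.10 on silver nitrate replicates 1 and 3. Without that array the differences of asp-1, asp-3, asp-5 and asp-6 were −0.0061, −0.083, −0.14 and −0.11, and after quantile normalisation they were −0.017, −0.012, 0.016 and −0.078.

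The gene asp-12, which lies between asp-5 and asp-6 in the reference gene order with 0 protein-coding genes between it and either, had log2 differences of −0.38 ± 0.24, −0.53 ± 0.24 and −0.35 ± 0.24 for aged particles, pristine particles and silver nitrate. Its signal was 213 to 315, 182 to 322 and 213 to 334.5 in the exposed groups, in that order, against 313 to 381 in control animals, so each exposed group reached into the control range. The dim gene asp-15, near the floor, had signals of 12.2 to 28.8, 16.3 to 35.5 and 30 to 73.1 in those groups, against 21.7 to 44.1 in control animals. Each exposed group overlapped with control, while the aged arrays lay under the silver nitrate arrays (−0.88 ± 0.45, adjusted p = 0.525). For asp-19, also dim, the silver nitrate arrays ran from 7.7 to 67.8, against 32.9 to 56.6 in control animals. For asp-9 the largest difference from control was −0.24 ± 0.22, with silver nitrate.

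**Figure D2:**
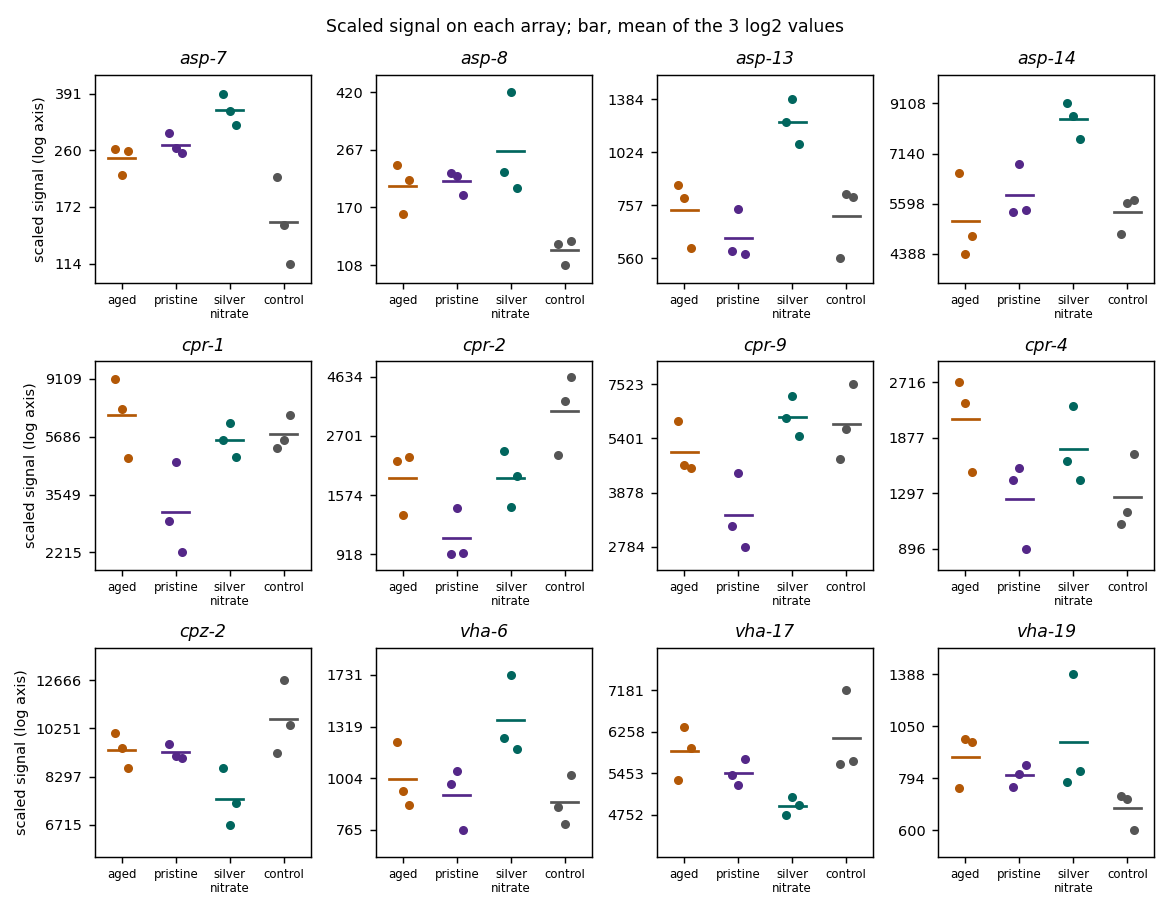
Scaled signal on a log2 axis (each panel with its own range) of 12 genes on each array, in aged-particle, pristine-particle, silver nitrate and control animals; points are arrays and bars the mean of 3 log2 values. The silver nitrate arrays stand above all others for asp-13 (1071 to 1384) and asp-14 (7654 to 9108), and the pristine arrays lie under the control arrays for cpr-1, cpr-2 and cpr-9.

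Among the cathepsins, 3 cathepsin B-like genes lay lower in pristine-particle animals than in control animals with no overlap, where 5.98% of all probe sets did, again without passing the test. The gene cpr-2 had signals of 2142, 1316 and 2227 in aged-particle animals, 918, 1406 and 928 in pristine-particle animals and 2359, 1415 and 1873 in silver nitrate animals, against 2263, 3707 and 4634 in control animals. The pristine group had the lowest mean, with single aged and silver nitrate arrays near its highest array, and the aged arrays lay under the lowest control array by a small margin. Its log2 difference was −1.67 ± 0.33 for pristine particles (adjusted p = 0.203), −0.88 ± 0.33 for aged particles (adjusted p = 0.518) and −0.88 ± 0.33 for silver nitrate (adjusted p = 0.32). The control group itself spread widely, with an SD of 0.53 on the log2 scale (n = 3).

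The gene cpr-1, whose product is a cathepsin B-like protease of the gut, had signals of 9109, 7109 and 4795 in aged-particle animals, 2861, 4606 and 2215 in pristine-particle animals and 5508, 6324 and 4806 in silver nitrate animals, against 5180, 5543 and 6759 in control animals. The pristine arrays were below all arrays of the other groups, and the aged and silver nitrate arrays overlapped with control. The log2 difference for pristine particles against control was −0.91 ± 0.30 (adjusted p = 0.43), and for aged against pristine particles it was 1.14 ± 0.30 (adjusted p = 0.226). With silver nitrate it was −0.07 ± 0.30 against control.

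For cpr-9, another cathepsin B-like gene, the signal was 6001, 4579 and 4511 in aged-particle animals, 3162, 4384 and 2784 in pristine-particle animals and 6118, 7009 and 5467 in silver nitrate animals, against 4767, 5712 and 7523 in control animals. Here too the pristine arrays were the lowest of all 12. The log2 difference was −0.80 ± 0.22 for pristine particles against control (adjusted p = 0.322), 0.56 ± 0.22 for aged against pristine particles (adjusted p = 0.414) and −0.87 ± 0.22 for pristine particles against silver nitrate (adjusted p = 0.254). In cpr-1, cpr-2, cpr-4 and cpr-9 the highest of the 3 pristine arrays was replicate 2. With pristine particles 9 of the 14 intestine markers lay higher than control and 5 lower (median 0.17, 0 called). The part of these markers in the values of the cpr genes was not tested.

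The gene cpr-4 codes for a cathepsin B that irradiated worms secrete. It had signals of 2716, 2362 and 1492 in aged-particle animals, 1416, 1531 and 896 in pristine-particle animals and 1609, 2323 and 1419 in silver nitrate animals, against 1057, 1148 and 1680 in control animals. All exposed groups overlapped with control, and the aged group had the highest mean. The log2 difference was 0.74 ± 0.31 for aged particles (adjusted p = 0.581), −0.02 ± 0.31 for pristine particles and 0.46 ± 0.31 for silver nitrate. For aged against pristine particles it was 0.77 ± 0.31 (adjusted p = 0.441).

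For aged against pristine particles, at an unadjusted p under 0.05, 4 of 11 cathepsins (cpr-1, cpr-2, cpr-4 and cpr-9) were higher and 0 lower, where 10.3% of all probe sets differed in either direction, while 0 of 15 asp genes and 0 of 18 vha genes reached it. For pristine particles against silver nitrate it was 4 cathepsins too, with 1 higher (cpz-2) and 3 lower (cpr-1, cpr-2 and cpr-9), where 9.54% of all probe sets differed. Of the 11 cathepsins 9 lay higher with aged than with pristine particles (median 0.13, against −0.03 over all genes). The higher ones include cpl-1 (0.0064), cpr-3 (0.017) and cpz-2 (0.017), which lay close to 0.

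Of the cathepsins, cpz-2, of the cathepsin Z type, had the smallest p with silver nitrate. Its signal was 10035, 9382 and 8626 in aged-particle animals, 9589, 9073 and 9006 in pristine-particle animals and 8611, 6715 and 7381 in silver nitrate animals, against 9182, 12666 and 10408 in control animals. The silver nitrate arrays lay under the lowest control array, with a log2 difference of −0.50 ± 0.13 (adjusted p = 0.154), which was −0.38 to −0.61 when single arrays were left out and −0.32 after quantile normalisation. For cpr-3 the silver nitrate arrays gave 353, 419 and 218, against 230, 251 and 236 in control animals, a difference of 0.41 ± 0.20 (adjusted p = 0.447) that 2 of the 3 arrays carried.

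The cathepsin L gene cpl-1 is needed for embryonic development and for the handling of yolk. Among proteases over the floor on all 12 arrays, its brightest probe set had the smallest within-group spread and the smallest range. Its signal was 7910, 8567 and 7566 in aged-particle animals, 7877, 8070 and 7959 in pristine-particle animals and 8559, 7828 and 7823 in silver nitrate animals, against 8166, 7356 and 7665 in control animals. Its differences from control were 0.05, 0.05 and 0.06 for the 3 exposures, with an SE of 0.06. A dimmer further probe set of cpl-1 (mean signal 228) had 0.23, 0.08 and 0.04, with an SE of 0.18. The cathepsin B gene cpr-6 and the cathepsin Z gene cpz-1, which acts in molting, had differences between −0.06 and −0.05 and between −0.09 and 0.05. For cpr-5 they lay between −0.17 and 0.00, and for the dim gene cpr-8 between −0.35 and 0.20.

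**Figure D3:**
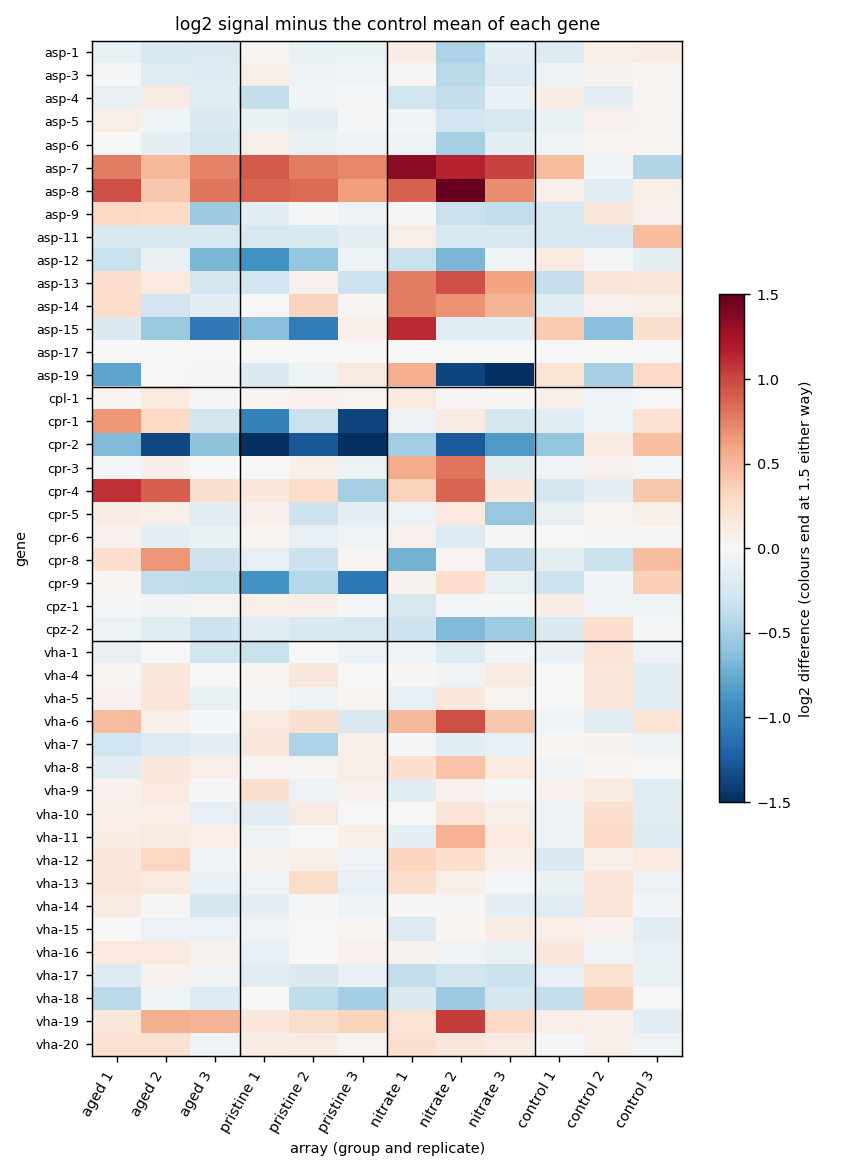
Log2 signal of each gene on each array (colour) minus the control mean of that gene, with the arrays of aged-particle, pristine-particle, silver nitrate and control animals from left to right and the asp, cathepsin and vha genes from top to bottom. Most vha rows are pale on every array, whereas asp-7, asp-8, cpr-2 and, with silver nitrate, asp-13, asp-14 and vha-6 stand out. Other rows do so too, among them cpr-1 with pristine particles and, on single arrays, the dim genes asp-15 and asp-19.

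By its median difference the V-ATPase class lay close to control in every exposure, read from the brightest probe set of each gene. With silver nitrate 4 of its 18 genes lay higher than control with no overlap (22.2%, against 6.05% of all probe sets). On the lower side 1 did (5.56%, against 8.03%). For all 18 the unadjusted 95% interval of the difference lay within 1 either way on the log2 scale for aged and for pristine particles, and for 17 of 18 with silver nitrate, the exception being vha-6. It lay within 0.5 either way for 14, 16 and 13 genes with aged particles, pristine particles and silver nitrate, against 35.7%, 34.6% and 31.7% of all genes. The width of an interval follows its SE, with a median of 0.12 for the vha genes and 0.20 for all genes, dim ones included. These intervals bound the differences and do not show that the levels were equal.

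Of the 9 genes for the cytosolic V1 part, the catalytic A subunit gene vha-13 had log2 differences of 0.07, 0.04 and 0.10 for aged particles, pristine particles and silver nitrate (SE 0.14 each). The B subunit gene vha-12 had 0.14, 0.03 and 0.22 (SE 0.12). The E subunit gene vha-8 stood out of the V1 genes by its smallest p with silver nitrate, with signals of 3103, 3529 and 2905 in silver nitrate animals, against 2554, 2692 and 2640 in control animals. The groups did not overlap, and the difference was 0.27 ± 0.10 (adjusted p = 0.297). In aged-particle and pristine-particle animals vha-8 had signals of 2328.5 to 2936 and 2654 to 2794, which reached into the control range. The lowest V1 value with silver nitrate was −0.34 ± 0.20, for the dim H-related gene vha-18. For the brightest probe sets of the other V1 genes, vha-9, vha-10, vha-11, vha-14 and vha-15, differences from control lay between −0.08 and 0.18 over the 3 exposures. Both further probe sets of vha-11 lay higher than its brightest with silver nitrate, at 0.42 ± 0.13 and 0.47 ± 0.30. The median over the V1 genes was 0.03, 0.01 and 0.09 for the 3 exposures.

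Of the 7 genes for the membrane V0 part, vha-6, whose product is the a subunit at the apical membrane of the intestine, had the highest difference. Its signal was 1217, 937 and 874 in aged-particle animals, 974, 1044 and 765 in pristine-particle animals and 1242, 1731 and 1174 in silver nitrate animals, against 861, 789 and 1023 in control animals. The silver nitrate arrays did not overlap with control, and replicate 2 was the highest. The log2 difference was 0.62 ± 0.19 for silver nitrate (adjusted p = 0.244), 0.17 ± 0.19 for aged particles and 0.05 ± 0.19 for pristine particles. For pristine against silver nitrate it was −0.57 ± 0.19 (adjusted p = 0.402). The higher summed signal of the intestine markers with silver nitrate, given above, stands beside this value too.

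The other a subunit genes had smaller differences. For vha-5, which is used in the epidermis and the excretory canal, the differences were 0.05, −0.01 and 0.03 (SE 0.11), and for vha-7 they were −0.22, −0.08 and −0.10 (SE 0.15), with the aged arrays under the lowest control array. The neuronal a subunit gene unc-32, outside the symbol rule, had signals of 1341, 1419 and 1592 in silver nitrate animals, against 1735, 2085 and 1621 in control animals, a difference of −0.32 ± 0.11 (adjusted p = 0.288). Of the 11 neuron markers 8 lay lower with silver nitrate (median −0.10, 0 called), with a summed signal of 33371 to 39905 in silver nitrate animals, against 38813 to 43386 in control animals, and their part in this value was not tested. Whether these genes differ from each other in their response was not tested.

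The e subunit gene vha-17 had signals of 5332, 6362 and 5937 in aged-particle animals, 5424, 5250 and 5716 in pristine-particle animals and 4752, 5030 and 4907 in silver nitrate animals, against 5624, 7181 and 5672 in control animals. The silver nitrate arrays lay under the control arrays, with a difference of −0.32 ± 0.10 (adjusted p = 0.244). After quantile normalisation it was −0.12. For the c subunit gene vha-1, the related vha-4 and the d subunit gene vha-16 the differences from control lay between −0.14 and 0.12 over the 3 exposures.

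The 2 accessory genes lay higher than control in every exposure. For vha-19 the signal was 753, 979 and 965 in aged-particle animals, 757, 814 and 854 in pristine-particle animals and 780, 1388 and 826 in silver nitrate animals, against 724, 713 and 600 in control animals. All 9 exposed arrays lay above the highest control array, some by a narrow margin. The log2 differences were 0.40 ± 0.21 (adjusted p = 0.673), 0.26 ± 0.21 (adjusted p = 0.794) and 0.51 ± 0.21 (adjusted p = 0.369), and the last was 0.25 without silver nitrate replicate 2. For vha-20 they were 0.13, 0.09 and 0.18 (SE 0.08).

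Counted over the 44 members, the silver nitrate arrays did not overlap with control for 8 genes on the higher side (18.2%), where 6.05% of all probe sets lay so, and for 3 on the lower side (6.82%), where 8.03% did. With aged particles 3 members lay higher without overlap (6.82%, against 4.37% of probe sets) and 2 lower (4.55%, against 6.7%). With pristine particles it was 3 higher (6.82%, against 5.33%) and 3 lower (6.82%, against 5.98%). The 8 genes with silver nitrate were asp-7, asp-8, asp-13, asp-14, vha-6, vha-8, vha-19 and vha-20. Between exposures, 3 members lay higher and 1 lower without overlap for aged against pristine particles, where 6.85% and 8.77% of probe sets did, and 3 higher and 4 lower for aged particles against silver nitrate, where 7.49% and 7.73% did. For pristine particles against silver nitrate it was 2 higher and 8 lower, where 7.77% and 5.75% of probe sets did. At an unadjusted p under 0.05, 1 member was higher and 7 were lower in that comparison, where 9.54% of probe sets differed, and 2 were higher and 5 lower for aged particles against silver nitrate, where 11% did. The members are not independent of each other, and the counts carry no test.

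By position the classes also differed. On chromosome V lie 11 of 15 asp genes and 9 of 11 cathepsins by the reference annotation, and 2 of 18 vha genes, where 25.2% of all genes measured do. Besides asp-7 with asp-8 and asp-12 with both asp-5 and asp-6, direct neighbours were asp-1 with asp-15 and cpr-5 with cpr-8. Neighbours did not always show like values: with silver nitrate asp-1 had −0.16 and asp-15 had 0.27, each with groups that overlapped.

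Other genes of the lysosome and of autophagy were read from a list of 90 genes, 81 of them measured. The list holds enzymes, membrane proteins, tethering and autophagy genes, cystatins and the lysosomal regulator hlh-30. Of the 81, 0 passed in either direction against control in any exposure by limma, and the smallest adjusted p-values were 0.184, 0.227 and 0.144 for aged particles, pristine particles and silver nitrate. At an unadjusted p under 0.05, 1 lay higher and 3 lower with aged particles, 3 higher and 6 lower with pristine particles, and 3 higher and 8 lower with silver nitrate. Over all probe sets the shares in either direction were 8.25%, 8.63% and 12.3% for these exposures. Their median log2 differences were −0.04, −0.01 and −0.05. The regulator hlh-30, a transcription factor that drives lysosome and autophagy genes, had differences of 0.10, 0.37 and 0.29 with an SE of 0.37.

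With aged particles the smallest p belonged to aman-1, an alpha-mannosidase gene, with signals of 226, 237 and 236 in aged-particle animals, against 178, 141 and 130 in control animals (0.65 ± 0.11, adjusted p = 0.184). Next were rab-7, for the small GTPase of late endosomes (−0.52 ± 0.11, adjusted p = 0.264), ppt-1, for a palmitoyl-protein thioesterase (−0.53 ± 0.14, adjusted p = 0.357), and vps-33.1, for a tethering protein (−0.13 ± 0.05, adjusted p = 0.514). With pristine particles lipl-2, a lysosomal lipase-like gene, had signals of 1571, 1756 and 1547 in pristine-particle animals, against 2110, 2210 and 2440 in control animals (−0.47 ± 0.10, adjusted p = 0.227). It was also the gene of the list with the smallest adjusted p in any comparison, for aged against pristine particles (0.64 ± 0.10, adjusted p = 0.0747). The acid sphingomyelinase gene asm-3 had −0.37 ± 0.10 and the ceramidase gene asah-2 had −0.37 ± 0.11 with pristine particles.

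With silver nitrate glo-4, which is needed to form the acidic gut granules, had signals of 1297, 1431 and 1222 in silver nitrate animals, against 1111, 991 and 988 in control animals. The groups did not overlap (0.35 ± 0.09, adjusted p = 0.144), and with pristine particles the difference was 0.26 ± 0.09 (adjusted p = 0.446). The autophagy genes atg-16.2 and atg-3, both of the machinery that conjugates LGG-1 to membranes, had −0.40 ± 0.10 (adjusted p = 0.157) and −0.43 ± 0.11 (adjusted p = 0.162) with silver nitrate, and aman-1 had 0.40 ± 0.11 (adjusted p = 0.2).

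Markers of other tissues also lay apart between the groups, with 0 called. Of 12 germline and oocyte markers 10, 11 and 11 lay higher than control with aged particles, pristine particles and silver nitrate, with medians of 0.31, 0.70 and 0.77, and summed signals of 1442 to 1883, 1933.5 to 2264 and 2060 to 2330, against 1108 to 1762.5 in control animals. Of the 8 epidermis markers 5, 3 and 6 lay higher (medians 0.45, −0.13 and 0.17). Of the 8 body wall muscle markers 8, 5 and 5 lay higher (medians 0.30, 0.10 and 0.13). For the 3 coelomocyte markers, genes of scavenger cells with large lysosomes, 2, 1 and 0 lay higher, and the summed signal with silver nitrate was 844 to 994, against 1017 to 1334 in control animals, with no overlap. Of the 5 excretory canal markers measured 2, 2 and 1 lay higher (medians −0.04, −0.26 and −0.13). Their summed signal was 1464 to 1655 with pristine particles, against 1814 to 2498 in control animals, also with no overlap. Of the 6 sperm markers measured 1, 1 and 0 lay higher (medians −0.24, −0.16 and −0.27), with 1 of the 6 at the floor on all arrays. Of the 8 pharynx markers 4, 4 and 6 lay higher (medians 0.11, 0.02 and 0.13). The part of all these markers in the values of the proteases and the V-ATPase genes was not tested. RNA integrity, read as how far the 3-prime probe sets of 4 control genes lay above their 5-prime ones on the log2 scale, was 0.97 to 1.35 with aged particles, 0.93 to 1.44 with pristine particles and 1.12 to 1.16 with silver nitrate, against 0.81 to 1.26 in control animals.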

How the data were processed

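The files deposited by the authors hold a linear intensity per probe set (22625 of them) for 12 arrays. With 2% trimmed from each end, array means were 500.1 to 500.2, which shows that deposited values were already scaled. Software and summarisation: not given in the sources used here. The number of arrays limits the precision. Per the labels' protocols, 100 ng of Trizol-extracted total RNA went into the IVT Express kit of Affymetrix.

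After 77 array controls were set aside, arrays were brought to a common median, values under 16 were set to 16 and log2 was taken of these deposited intensities. Gene names came from the platform annotation, and all 44 members had the same symbol in the reference gene table (WBcel235). A gene with more than 1 probe set (10 members) was read from the one with the highest mean signal.

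All 12 arrays entered 1 limma model (version 3.58.1, R 4.3.3) with a mean per group (8 residual and 0.94 prior degrees of freedom), with Benjamini-Hochberg adjustment over 22548 probe sets and calls at an adjusted p under 0.05. Every adjusted p of a gene is limma's, ± is the SE of a difference, and n is 3 arrays a group. The procedure was run on simulated arrays with independent noise and known changes in 200 probe sets, as a check that the median change was recovered. How often changes of the size seen here would be called is not reported here. Genes named are the 4 of each class with the smallest p per exposure, the 3 brightest, the vha genes by subunit and 4 per exposure of the lysosome list; the remaining members are given so that each is accounted for, and unc-32 and hlh-30 were named after their values were seen. Members and lists were chosen with earlier results of these data known. Samples of the same replicate number correlated in their deviations from the group means at −0.12 to 0.14 over 18 pairs. Of these, 4 lay over 0.1. Pairs of different numbers ran from −0.188 to 0.241. Between exposed groups, pairs of the same number were all positive (0.039 to 0.137), while those of different numbers ran from −0.157 to 0.065. Whether the numbers stand for a shared batch was not tested. The main fit did not pair them, and a replicate block was fitted as an alternative. Alternatives covered scaling, floor, brightness, variance model, arrays in the fit, single arrays left out and a replicate block. No sequence of a gene or protein was used.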

Additional observations from a re-analysis of the deposited data

How the results depend on the processing

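No member was called in the 6 comparisons or the F test with the deposited scaling, quantile normalisation, floors of 1 and 64, the compared arrays only, or the replicate block, where the smallest adjusted p of a member against control was 0.305, 0.208 and 0.0774 for aged particles, pristine particles and silver nitrate, so the block gave 0 calls in each comparison. With probe sets above median brightness 1 member was called for pristine particles against control (cpr-2, −1.67, adjusted p = 0.04615), 3 for silver nitrate against control (asp-7, asp-8 and asp-13), 1 for aged against silver nitrate (asp-14, −0.71), 1 for pristine against silver nitrate (asp-13, −0.95) and 3 by the F test (asp-7, asp-13 and cpr-2). That fit tested 11274 probe sets in place of 22548. Over all of them it called 184 for silver nitrate against control and 15 for pristine particles against control. It called 190 for aged against silver nitrate, 76 for pristine against silver nitrate and 227 by the F test. For silver nitrate against control the reported setting called 30, the trend and robust variance 85, quantile normalisation 69 and the replicate block 10. Brightness includes the exposed arrays, through which asp-8 may have entered that fit. With a trend and robust variance 1 was called for silver nitrate (asp-7). Leaving out single arrays gave 0 to 1 calls for silver nitrate against control (asp-7, without control replicate 1) and 0 to 1 for aged against silver nitrate (cpr-3, −0.67, adjusted p = 0.048, without silver nitrate replicate 3), and 0 in the other comparisons.

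Class medians with silver nitrate depended on the scaling. After quantile normalisation they were −0.012 for asp, 0.11 for cathepsins and 0.14 for vha genes, and with a floor of 64 the asp median was 0.00. Leaving out single arrays, the medians with silver nitrate lay between −0.23 and −0.07 (asp), −0.13 and 0.026 (cathepsins) and −0.05 and 0.11 (vha). The cause of these shifts was not tested. The difference of asp-5 with silver nitrate turned to 0.016 after quantile normalisation, a setting chosen for the bright members after the data were seen. Of the 36 differences from control named by smallest p, 34 kept their sign in every alternative, and the others, both of asp-15, were 0 with a floor of 64. The brightness subset, the variance model, the compared arrays only and the replicate block leave the difference itself unchanged, so no sign could turn there. Leaving out an array of a group outside the comparison rescales the remaining arrays by a common factor. That leaves a difference unchanged unless values lie at the floor. These differences were chosen by their small p, so the count of kept signs is no test of them.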

Other observations

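The c subunit genes vha-2 and vha-3 share 4 probe sets on this array, so neither could be read alone and neither is among the members. The brightest shared probe set had signals of 11092 to 13213 in aged-particle animals, 11794 to 13586 in pristine-particle animals and 11448 to 13241 in silver nitrate animals, against 12222 to 13204 in control animals. Its log2 differences from control were −0.08 ± 0.09, 0.03 ± 0.09 and −0.07 ± 0.09 (SE, n = 3 arrays a group). Another shared probe set had 2202.5, 1992 and 1489 in aged-particle animals, against 2331, 2519 and 2719 in control animals, with no overlap and a difference of −0.43 ± 0.14 (limma adjusted p = 0.472), while the other 3 had differences between −0.14 and 0.02.

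Further probe sets of 3 V-ATPase members gave other values than the brightest. For vha-11, the C subunit gene, both further probe sets had 0.42 ± 0.13 and 0.47 ± 0.30 with silver nitrate, against 0.18 for the brightest. For vha-13 they had 0.43 ± 0.20 and −0.26 ± 0.11, opposite in sign, against 0.10 for the brightest. The further probe set of vha-1, the c subunit gene, had 0.16 ± 0.17 with aged particles and 0.22 ± 0.17 with silver nitrate, opposite in sign to −0.13 and −0.10 for the brightest. Protease members varied too. The further probe set of asp-5 had −0.05 ± 0.13 with silver nitrate, against −0.19 for the brightest. That of asp-4 had 0.11 ± 0.12 with aged particles, against −0.05. For cpr-3 it had −0.23 ± 0.19 with pristine particles, against −0.0002. For asp-6 the 2 lay close with silver nitrate, at −0.23 ± 0.11 and −0.24. No member had its brightest and a further probe set opposed at an unadjusted p under 0.05.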
